A study of Gallus gallus with 16 samples.

Results

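Female and male gonads of chicken embryos were set against each other after methyltestosterone, a synthetic androgen. The 2 columns of the table that carry this substance were used, 1 for each sex, among 8 columns in all, and they stand for 4 of the 16 libraries of the series. All genes were members: 14074 genes were listed, and 6507 of them reached at least 10 RPM in at least 1 of the 2 columns. RPM is the number of sequenced tags of a gene scaled to a total that is the same in every column, and because SuperSAGE counts 1 short tag at the 3′ end of a transcript, it needs no length correction.

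The groups were female gonads after methyltestosterone at 30 pg per g and male gonads after the same dose, and the other pairs were female and male gonads after no substance, after sesame oil and after tributyltin at 10 pg per g. All were taken at embryonic day 19, shortly before hatching, and every library was made from RNA of 10 individuals. The labels list left and right gonads apart, but each column held both sides together, so a female column joins the left ovary with the right gonad, which in birds regresses. The vehicle of methyltestosterone is not stated in the labels. There was thus 1 value per gene, sex and substance, with no replicate, and the intervals of ratios given here are exact binomial (Clopper-Pearson) 95% intervals that cover counting error only.

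In birds the female has a Z and a W chromosome and the male 2 Z chromosomes. The Z-linked gene DMRT1 directs the embryonic gonad to become a testis, where Sertoli cells switch on SOX9 and secrete anti-Müllerian hormone (AMH). In the ovary FOXL2 and aromatase (CYP19A1), which turns androgens into oestrogens, mark the female programme, and oestrogen is needed to hold it.

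The female methyltestosterone column held 3154653 tags and the male one 6669049, so that 1 tag was 0.317 RPM in females and 0.150 RPM in males. The untreated columns held 2301752 tags in females and 1953798 in males, while the oil and tributyltin columns held between 314810 and 508095. At that depth 1 tag was between 1.97 and 3.18 RPM, and differences of weak genes were not detectable there. RNA of W-linked genes was not absent from the male column. The 4 W genes that reached 10 RPM summed to 231 RPM in females and 33.0 RPM in males after methyltestosterone, so the male sum was 14.3% of the female sum. The male share was 11.3% in the untreated pair, 2.28% (2 male tags) after oil and 0% (0 male tags, which allows up to 3.28%) after tributyltin. SPINW, a W-linked gene on an unplaced scaffold, likewise had 106 RPM in females and 15.7 RPM in males after methyltestosterone, against 60.0 RPM in females and 2.05 RPM in males of the untreated pair. Whether this came from female RNA in the male pools was not tested. The AMH difference and the counts of genes that kept less than 50% of their sex difference are given below with and without it. All other ratios and calls are given with it only.

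After methyltestosterone 375 of the 6507 genes were higher in females (5.76%) and 181 were higher in males (2.78%), counting a gene when its whole interval lay past 2-fold. The largest female excesses included the egg coat protein ZP1 and the neuropeptide galanin, and the largest male excesses included the Sertoli cell genes SOX9 and CLDN11. Most of the spread was small. Over 3215 genes whose mean over the 8 columns reached 50 RPM, the median distance between the sexes was 0.35 on the log2 scale after methyltestosterone, against 0.33 untreated, 0.52 after oil and 0.47 after tributyltin. The oil and tributyltin columns were the shallowest. At matched depth (314810 tags a column) these medians were closer, at 0.45 after methyltestosterone, 0.41 untreated, 0.53 after oil and 0.50 after tributyltin. With every column thinned to 314810 tags, 102 genes were higher in females and 63 in males after methyltestosterone. The same counts were 164 and 43 in the untreated pair, 205 and 107 after oil, and 144 and 88 after tributyltin.

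**Figure D1:**
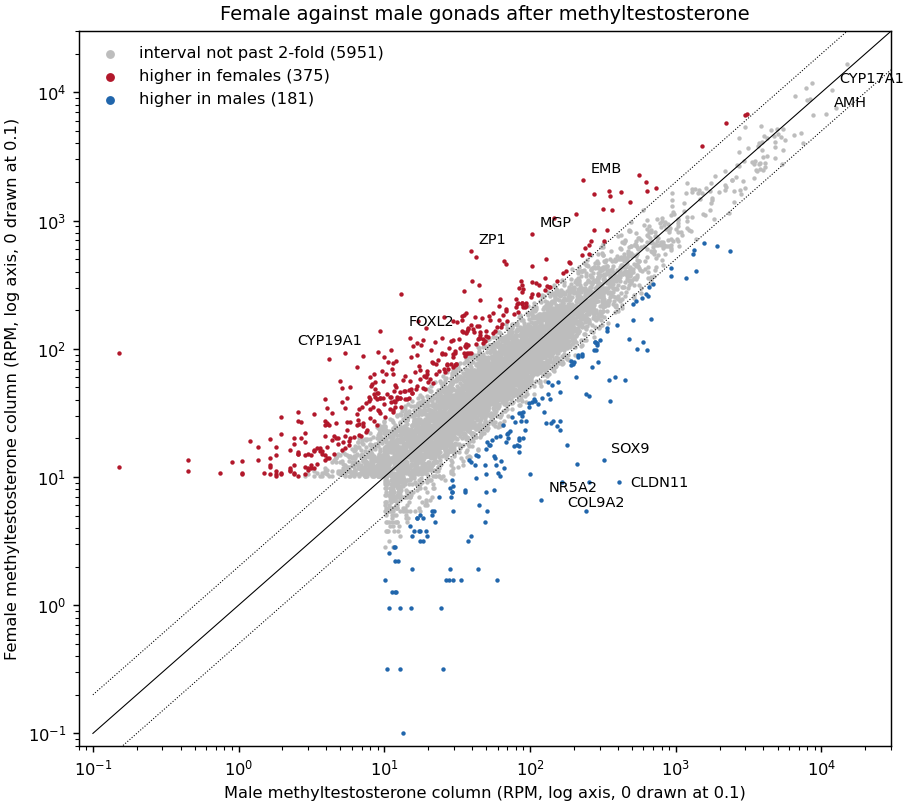
Each point is 1 of 6507 genes, with its RPM in the female methyltestosterone column on the vertical axis and in the male methyltestosterone column on the horizontal axis, both on log scales with 0 drawn at 0.1. Red points (375) were higher in females and blue points (181) higher in males, with the whole counting interval past 2-fold (dotted lines), and AMH lies near the line of equality while SOX9 and CLDN11 lie far below it.

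AMH, the Sertoli cell hormone that makes the Müllerian ducts regress, kept the smallest share of its sex difference among the 4 testis markers that were male-high in the other pairs. It had 6774 RPM in females and 10834 RPM in males after methyltestosterone. It had 1486 RPM in females and 10186 RPM in males untreated, 1242 RPM in females and 8167 RPM in males after oil, and 977 RPM in females and 6912 RPM in males after tributyltin. The female methyltestosterone column thus stood 4.56 times above the untreated female column, while the male methyltestosterone column stood 1.06 times above the untreated male one. Males had 1.60 times the female level after methyltestosterone (1.57 to 1.62), and 24.4% of the mean log2 difference of the other 3 pairs was kept. In the limma model over all 8 columns the female minus male difference was 2.09 ± 0.39 (SE) higher on the log2 scale after methyltestosterone than in the other 3 pairs, but its adjusted p was 1 over 9280 genes, and 0.0511 to 1 under the alternative settings of limma. On the recovered tags without the untreated pair, the departure from the oil and tributyltin pairs was 2.16 by edgeR and 2.20 by DESeq2. Those fits had 1 residual degree of freedom. Taking the W-linked share off every male column left the log2 difference of AMH at -0.76.

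SOX9, CLDN11, INHBB and HEMGN kept a large male excess. SOX9, the transcription factor that acts upstream of AMH in mammals, had 13.6 RPM in females and 322 RPM in males after methyltestosterone, 30.9 and 273 RPM untreated, 0 and 81.2 RPM after oil, and 5.14 and 47.2 RPM after tributyltin, with the female value first. Its male excess after methyltestosterone was 23.6-fold (17.5 to 32.8). CLDN11, a tight junction protein of Sertoli cells, had 9.19 RPM in females and 411 RPM in males after methyltestosterone, against 2.61 RPM in females and 229 RPM in males untreated. It stood at 0 tags in females after oil and tributyltin and at 10.2 and 3.94 RPM in the males of those pairs. Its male excess of 44.7-fold (31.0 to 66.8) was among the largest of all genes. The inhibin subunit gene INHBB (0.951 RPM in females, 24.6 RPM in males) and HEMGN (5.39 RPM in females, 50.4 RPM in males), a Z-linked gene known for its role in the chicken testis, were also higher in males. These 4 genes kept between 81.2% and 136% of the difference seen in the other pairs. The 136% was that of CLDN11 and depends on the pseudocount of 1, as its oil and tributyltin columns held few or no tags. The 108% of SOX9 depends on it too, as the female oil column had no SOX9 tag. The female INHBB value after methyltestosterone was 3 tags. Set against the untreated pair alone, the male-to-female ratio of CLDN11 was smaller after methyltestosterone.

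DMRT1 itself had 31.1 RPM in females and 49.0 RPM in males after methyltestosterone, against 9.56 RPM in females and 66.0 RPM in males untreated. The 1.58-fold male excess (1.26 to 2.00) did not lie past 2-fold. After oil DMRT1 had 6.35 RPM (2 tags) in females and 4.06 RPM in males, too few tags to order the sexes. Of 13 Sertoli and testis markers that reached 10 RPM, 4 were higher in males and 3 in females, and the median log2 difference was -0.68, against 0.03 over all 6507 genes. The 3 were PTGDS, a prostaglandin D synthase (97.95 RPM in females, 20.8 RPM in males), SOX10 (87.2 and 7.20 RPM) and WT1 (91.0 and 36.4 RPM), which is also active in the ovarian surface and kidney. SOX10 was female-high on average in the other pairs too, by 3.15 on the log2 scale. Over all 6507 genes 2.78% were higher in males and 5.76% in females. In bulk tissue fewer cells of a type and less RNA per cell cannot be told apart. The untreated pair had a median of -0.91 for these markers, the oil pair -0.37 and the tributyltin pair -2.30.

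**Figure D2:**
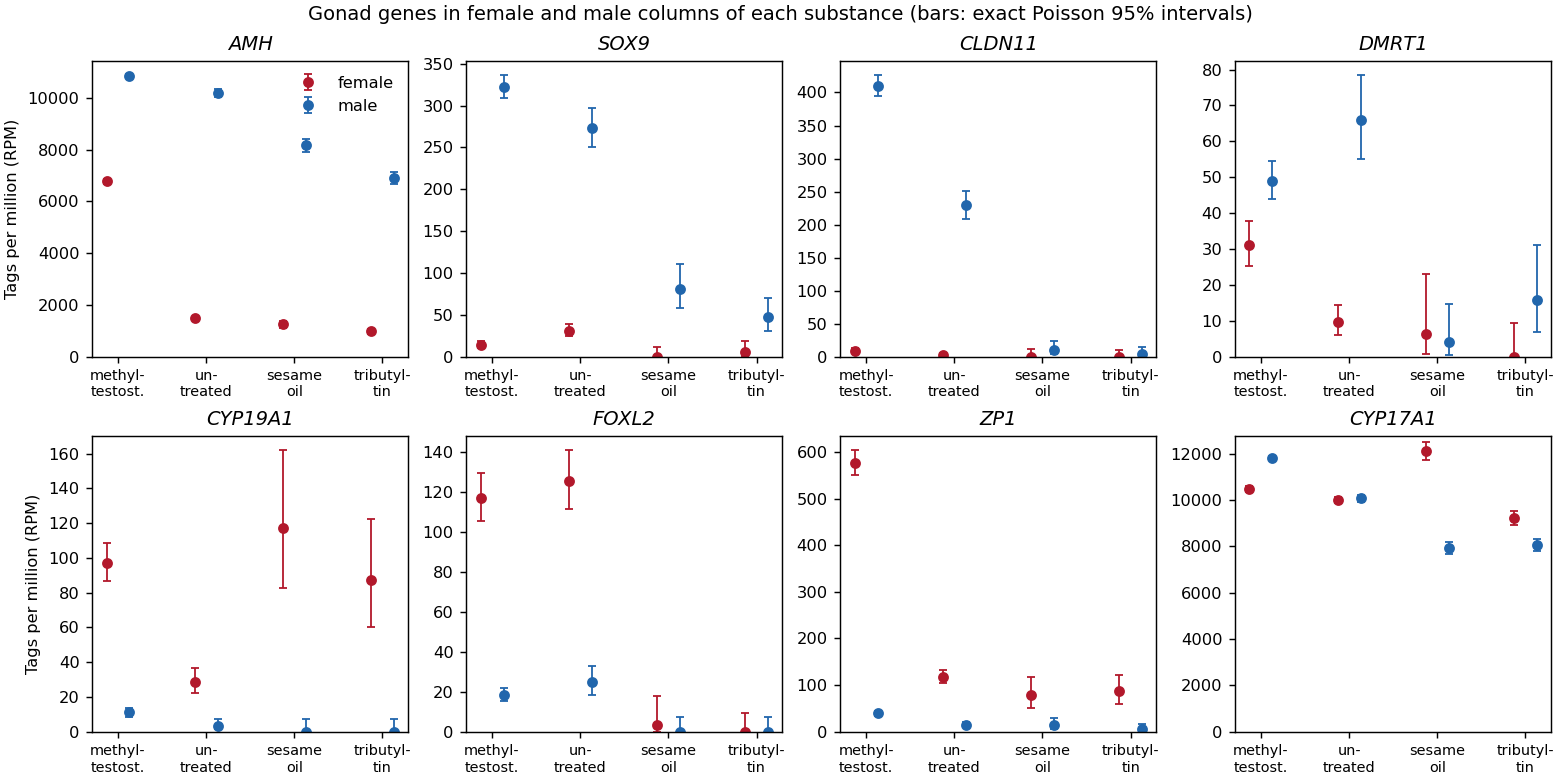
Level in RPM of 8 gonad genes in the female (red, left) and male (blue, right) column of each substance, with methyltestosterone at the left of each panel and bars for exact Poisson 95% intervals. AMH was 6774 RPM in females after methyltestosterone, above all other female columns, while SOX9 and CLDN11 stayed low in females and ZP1 was highest in females after methyltestosterone at 577 RPM.

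The largest male excesses after methyltestosterone also included the following genes. The organic anion transporter SLCO4A1 had 5.39 RPM in females and 243 RPM in males, a 45.0-fold male excess (28.0 to 77.5). The collagen gene COL9A2 had 9.19 RPM in females and 256 RPM in males. The nuclear receptor gene NR5A2, a relative of steroidogenic factor 1, had 6.66 RPM in females and 120 RPM in males, with males between 79.8 and 120 RPM and females between 6.35 and 20.6 RPM in the other pairs. Steroidogenic factor 1 itself (NR5A1), which drives steroid enzyme genes, had 250 RPM in females and 518 RPM in males, a 2.07-fold male excess (1.91 to 2.24) whose interval did not clear 2-fold. The glycine receptor gene GLRA4, the potassium channel partner DPP6, the cysteine dioxygenase CDO1 and the Z-linked gene C5orf63 were 10.1-fold to 37.7-fold higher in males. ALDH1A1, a Z-linked retinal dehydrogenase that makes retinoic acid, was 21.1-fold higher in males (8.91 to 65.6). Both of its columns were low after methyltestosterone, with 1.59 RPM in females and 33.4 RPM in males, against 7.82 RPM in females and 141 RPM in males untreated and 95.4 to 106 RPM in males after oil and tributyltin.

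FOXL2, CYP19A1, GREB1 and RSPO1, which belong to the ovarian programme, were higher in females after methyltestosterone. Aromatase (CYP19A1) had 97.3 RPM in females and 11.1 RPM in males after methyltestosterone, 28.7 RPM in females and 3.58 RPM in males untreated, and 117 RPM after oil and 87.4 RPM after tributyltin in females, with 0 male tags in both. Every female column was above every male column. The female excess after methyltestosterone was 8.77-fold (6.78 to 11.5). The male value was 11.4% of the female one after methyltestosterone and 12.5% untreated, against 14.3% and 11.3% for the W genes. After methyltestosterone the male shares of FOXL2 and RSPO1 were near that of the W genes, and that of GREB1 was 18.7%. Whether female RNA contributed to these male values was not tested. FOXL2 had 117 RPM in females and 18.4 RPM in males after methyltestosterone, a 6.34-fold excess (5.16 to 7.84), and 126 RPM in females and 25.1 RPM in males untreated. In the oil and tributyltin columns of both sexes FOXL2 had at most 3.18 RPM, or 1 tag. RSPO1, a WNT pathway activator that promotes ovary formation, had 53.6 RPM in females and 8.25 RPM in males, a 6.50-fold excess. WNT4, its partner in the ovary, had 37.1 RPM in females and 24.3 RPM in males, a 1.53-fold excess (1.19 to 1.95) that did not clear 2-fold.

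GREB1, which oestrogen switches on in other tissues, had 89.1 RPM in females and 16.6 RPM in males after methyltestosterone, against 32.1 RPM in females and 5.63 RPM in males untreated. Females had 111 RPM after oil and 121 RPM after tributyltin, and males had no tag in either column. GREB1 kept 43.9% of the mean log2 difference of the other pairs, a share that depends on the pseudocount of 1 because of those zeros. Its 5.35-fold excess after methyltestosterone (4.28 to 6.73) was close to the 5.71-fold of the untreated pair. Of 12 ovary and granulosa markers that reached 10 RPM, 4 were higher in females (FOXL2, CYP19A1, GREB1 and RSPO1), against 5.76% of all genes. LGR5, a receptor for R-spondins, was higher in males, with 3.80 RPM in females and 15.9 RPM in males. The median log2 difference of the 12 was 0.45 after methyltestosterone, 0.43 untreated, 1.63 after oil and 0.50 after tributyltin. The 18 genes of the list that the table holds summed to 1578 RPM in females and 1888 RPM in males after methyltestosterone. That was the only pair in which the male sum was the higher, with 1434 RPM in females and 1236 RPM in males untreated, 1414 and 1039 RPM after oil and 1602 and 1395 RPM after tributyltin, females first. The higher male sum came from other members of the list, as FOXL2, CYP19A1, GREB1 and RSPO1 were all higher in females.

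The oestrogen receptor genes were under the minimum, with 0 tags in females and 1.05 RPM in males for ESR1, and 5.71 RPM in females and 3.15 RPM in males for ESR2.

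Most steroid synthesis genes lay within 2-fold between the sexes. CYP17A1, which makes androgens, had 10473 RPM in females and 11817 RPM in males after methyltestosterone, and between 7917 and 12122 RPM in the 6 other columns. HSD3B2, a dehydrogenase of the same pathway, had 454 RPM in females and 817 RPM in males, and males were also higher in the other 3 pairs. Of 15 steroid genes that reached 10 RPM 3 were higher in females and none in males, against 5.76% and 2.78% of all genes. They were CYP19A1, the luteinising hormone receptor LHCGR (31.7 RPM in females, 9.30 RPM in males) and STAR, which carries cholesterol into mitochondria (39.0 RPM in females, 11.7 RPM in males). The follicle stimulating hormone receptor FSHR had 230 RPM in females and 223 RPM in males after methyltestosterone, a ratio of 1.03 (0.94 to 1.13). Females had the higher FSHR value in the other 3 pairs, by 1.19-fold to 2.29-fold. Of 15 cholesterol synthesis genes only ACAT2 was past 2-fold, with 169 RPM in females and 508 RPM in males.

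The largest female excesses after methyltestosterone were found among genes that were mostly female-high in the other pairs too. ZP1 had 577 RPM in females and 39.4 RPM in males, a 14.6-fold excess (12.8 to 16.7), against 118 RPM in females and 14.8 RPM in males untreated. Its female value was the highest of the series. HHIPL2 had 521 RPM in females and 42.7 RPM in males. The Z-linked cell surface gene EMB (embigin) had 2077 RPM in females and 232 RPM in males after methyltestosterone, 3852 and 285 RPM untreated, 2017 and 46.7 RPM after oil and 1659 and 82.7 RPM after tributyltin, females first. Its difference in the 6 columns without methyltestosterone had a limma adjusted p of 2.45e-08. MGP, a calcification inhibitor of the matrix, kept 98.9% of its difference, with 783 RPM in females and 103 RPM in males, and the WNT antagonist DKK3 had 444 RPM in females and 104 RPM in males.

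Several of the female-high genes mark tissues that lie beside the gonad. The neuropeptide galanin (GAL) had 138 RPM in females and 9.30 RPM in males. DBH, the enzyme that makes noradrenaline, had 92.2 RPM in females and 5.40 RPM in males after methyltestosterone, against 6.52 RPM in females and 0.512 RPM in males untreated. Of 9 adrenal and chromaffin markers 7 were higher in females and 1 in males, against 5.76% and 2.78% of all genes. The male-high marker was NPY (60.2 RPM in females, 207 RPM in males). The adrenal list summed to 960 RPM in females and 415 RPM in males after methyltestosterone, 1687 and 755 RPM untreated, 689 and 296 RPM after oil, and 1091 and 270 RPM after tributyltin, with the female sum first in each pair. CYP21A2, an adrenal steroid enzyme, was under 10 RPM in both sexes after methyltestosterone. Among 8 kidney and mesonephros markers the females had the excess in 5, including the phosphate transporter SLC34A1 (83.1 RPM in females, 4.20 RPM in males) and PCK1, an enzyme of glucose synthesis (121 RPM in females, 15.0 RPM in males). The kidney list summed to 755 RPM in females and 481 RPM in males after methyltestosterone, against 2192 RPM in females and 522 RPM in males untreated. How far adjacent tissue contributed to the female-high genes was not tested.

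Of 9 red blood cell markers 4 were higher in females and 1, HEMGN, was higher in males, against 5.76% and 2.78% of all genes. The globin genes HBAA, HBAD and HBB were 2.22-fold to 2.63-fold higher, and the 15 red blood cell genes in the table summed to 16884 RPM in females and 7022 RPM in males after methyltestosterone. The sums were 10646 RPM in females and 2976 RPM in males untreated, 9914 and 4054 RPM after oil and 12143 and 4818 RPM after tributyltin, in the same order. Of 13 leukocyte markers 5 were higher in females, including the complement genes C1QA (37.4 RPM in females, 9.90 RPM in males) and C1QB (47.9 RPM in females, 14.8 RPM in males). None of the 8 endothelial and none of the 10 muscle markers was past 2-fold in either direction. Of 3 gut markers that reached 10 RPM, 1 (SLC15A1) was higher in females and none in males. The gut list summed to 970 RPM in females and 625 RPM in males after methyltestosterone, against 2986 RPM in females and 403 RPM in males untreated. Its member TSPAN8, under the 10 RPM minimum, had 8.88 RPM in females and 2.10 RPM in males after methyltestosterone, against 294 RPM in females and 0.512 RPM in males untreated.

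Signalling genes were higher in females or in males, depending on the gene. Over all 6507 genes 5.76% were higher in females and 2.78% in males, and several of the counts below are near those shares. Of 21 WNT pathway genes 2 were higher in females (RSPO1 and DKK3) and 4 in males (RSPO3, WNT5A, LGR5 and WNT6). WNT6 had 7.92 RPM in females and 56.8 RPM in males. Of 20 genes of the TGF-beta, BMP and inhibin families 4 were higher in females (BMP3, BMP4, the activin binder FSTL3 and the W copy of SMAD2) and 1, INHBB, was higher in males. Of 12 retinoid genes 5 were higher in females, among them DHRS3, which turns retinal back into retinol, with 497 RPM in females and 129 RPM in males. CYP26A1, which degrades retinoic acid, had 10.8 RPM in females and 1.499 RPM in males, and ALDH1A1 was the only retinoid gene higher in males. Of 18 lipid and PPAR genes 5 were higher in females and none in males, including the fatty acid binder FABP7 (111 RPM in females, 16.8 RPM in males) and the lipid droplet gene CIDEC (45.3 RPM in females, 8.997 RPM in males).

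Germ cell, meiosis, proliferation and matrix lists had few members past 2-fold, as had all genes (5.76% higher in females and 2.78% higher in males). Of 8 germ cell markers NANOS1, a repressor of translation, was higher in females with 180 RPM in females and 52.6 RPM in males, and DDX4 was under 10 RPM. The female-to-male ratio of NANOS1 was 3.41 after methyltestosterone and 3.26 untreated. Of 8 meiosis genes SYCP1, a part of the synaptonemal complex, was higher in females with 23.5 RPM in females and 5.55 RPM in males. Of 23 proliferation genes none was past 2-fold, and their median log2 difference was -0.52 after methyltestosterone, -0.17 untreated, -0.47 after oil and -0.20 after tributyltin. CDC20, which releases cells from mitosis, had 318 RPM in females and 310 RPM in males after methyltestosterone, against 164 RPM in females and 245 RPM in males untreated. Of 35 matrix genes 3 were higher in females, namely MGP, elastin (ELN, 1390 RPM in females, 483 RPM in males) and fibronectin (FN1, 474 RPM in females, 184 RPM in males). Another 2, COL9A2 and ENSGALG00000005628, were higher in males.

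The median Z-linked gene was lower in females in every pair, and females carry a single Z. Of 341 Z genes that reached 10 RPM after methyltestosterone, 13 were higher in females (3.81%) and 47 in males (13.8%). Their median log2 difference was -0.56 after methyltestosterone, -0.49 untreated, -0.32 after oil and -0.71 after tributyltin, while 5967 genes of numbered autosomes had a median of 0.04 after methyltestosterone. All 4 W genes that reached 10 RPM were higher in females, led by SMAD2 with 178 RPM in females and 25.6 RPM in males. Among 10 genes with at least 20 RPM in the 3 other female columns and no male tag after oil and tributyltin, the male value after methyltestosterone was between 8.77% and 22.8% of the female one. In the reverse case, 5 genes with that level in the 3 other male columns and no female tag after oil and tributyltin, the female value was between 3.60% and 10.4% of the male one. The untreated columns gave 3.41% to 60.1% for those 10 genes and 2.23% to 10.4% for those 5. Both sets were picked for having no tag of the other sex after oil and tributyltin. SPINW, which is W-linked, is among the 10, and others of them also lie on unplaced scaffolds. The set was thus no separate check on the W share.

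**Figure D3:**
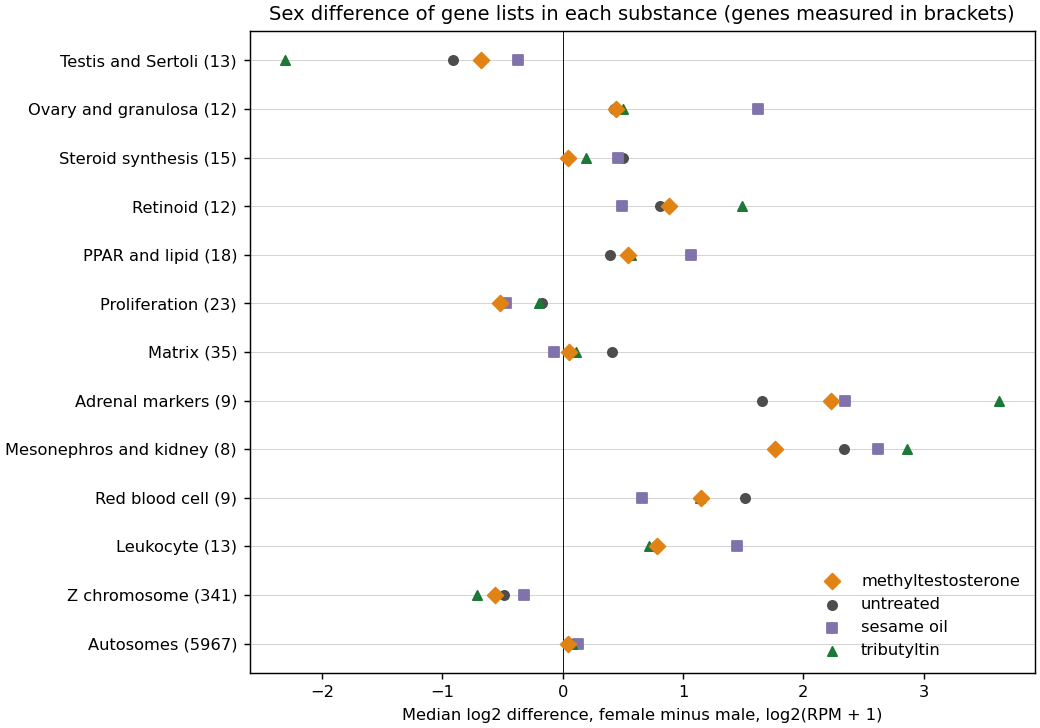
Median log2 difference, female minus male, of 13 gene groups after methyltestosterone (orange diamonds), untreated (dark circles), after sesame oil (squares) and after tributyltin (triangles), over the genes with at least 10 RPM in a methyltestosterone column. Adrenal, kidney, red blood cell and leukocyte markers were female-high and Z genes male-high in every pair, and for 9 of the 13 groups the methyltestosterone median lay within the range of the other 3.

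Which sex differences narrowed was then asked with a list that did not use the methyltestosterone columns. In the 6 other columns limma called 458 of 9242 genes by sex, 282 higher in females (3.05%) and 176 higher in males (1.9%), at an adjusted p under 0.05. Of these 458 genes 437 (95.4%) had the same direction after methyltestosterone. Of the 282 female-high genes 157 were past 2-fold in the same direction after methyltestosterone and none in the other. Of the 176 male-high genes 88 were past 2-fold in the same direction, and 1, the ribosomal protein gene RPS28, was past 2-fold the other way. The split between the sexes depended on the processing. With median-of-ratios scaling limma called 244 genes higher in females and 220 higher in males. Without the untreated pair limma called 23 female-high and 4 male-high genes. On the recovered tags of the same 4 columns edgeR called 168 female-high and 218 male-high genes.

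After methyltestosterone 141 of the 458 genes (30.8%) had less than 50% of the mean log2 difference of the other 3 pairs, 91 of the female-high and 50 of the male-high genes. The median gene kept 66.2% of its difference. The same count was made for each other substance from genes called without it, which shares columns with the first. It gave 97 of 429 genes (22.6%) untreated, 93 of 452 (20.6%) after oil and 24 of 234 (10.3%) after tributyltin, with medians of 76.5%, 101.2% and 110% kept. Set against the untreated pair alone, 100 of the 458 genes (21.8%) had less than 50% after methyltestosterone. With the W-linked share of its female column taken off each male column, 110 genes (24.0%) had less than 50% after methyltestosterone, against 20.3% untreated, 23.7% after oil and 14.5% after tributyltin. The subtraction takes off most, relative to the male value, where females are higher. By construction the female-high genes thus account for most of the shift from 141 to 110, with 63 in place of 91 of 282. The male-high genes with less than 50% numbered 47 in place of 50 of 176. The difference between these shares was not tested.

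**Figure D4:**
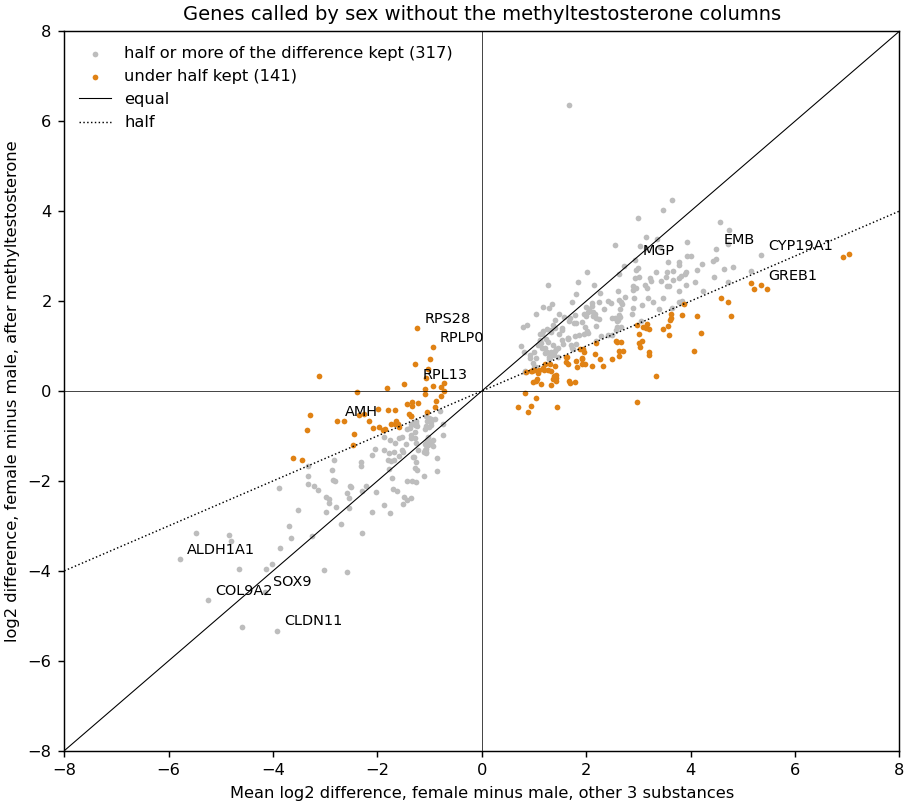
Each point is 1 of 458 genes called by sex without the methyltestosterone columns, with its mean log2 difference (female minus male) over the other 3 substances on the horizontal axis and its log2 difference after methyltestosterone on the vertical axis. The 141 orange genes kept less than 50% of the difference (dotted line), among them AMH. RPS28 and RPLP0 lie on the other side of 0, while SOX9, CLDN11 and MGP lie near or beyond the line of equality. The places of SOX9 and CLDN11 depend on the pseudocount of 1.

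Among the female-high genes that kept least was LTA4H. LTA4H, an enzyme of leukotriene synthesis, had 254 RPM in females and 353 RPM in males after methyltestosterone, against 274 and 173 RPM untreated, 997 and 426 RPM after oil and 1314 and 770 RPM after tributyltin, females first. The microtubule regulator STMN1, the tetraspanin CD82, LYRM5 and MOSC2 were also somewhat lower in females after methyltestosterone and higher in females in the 3 other pairs. The antioxidant enzyme catalase (CAT) had 213 RPM in females and 221 RPM in males, against 360 RPM in females and 184 RPM in males untreated. DDX25, an RNA helicase known from the mouse testis, had 77.3 RPM in females and 67.8 RPM in males. PTRF, a caveola protein, kept 43.1%, with 422 RPM in females and 195 RPM in males after methyltestosterone against 765 to 1163 RPM in females and 148 to 197 RPM in males of the other pairs. Every female column of PTRF was above every male column.

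The male-high genes that kept least included ribosomal protein genes. RPS28 had 695 RPM in females and 263 RPM in males after methyltestosterone, 30.4 and 89.1 RPM untreated, 499 and 761 RPM after oil, and 144 and 437 RPM after tributyltin, with the female value first. Its female excess after methyltestosterone was 2.64-fold (2.48 to 2.81), and the males were higher in the 3 other pairs. RPLP0 had 978 RPM in females and 497 RPM in males, and RPL13 had 4444 RPM in females and 2700 RPM in males, again with males higher in the other pairs. The 57 ribosomal protein genes that reached 10 RPM, a list drawn up after values were seen, had a median log2 difference of -0.30 after methyltestosterone, against -0.25 untreated, -0.45 after oil and -0.42 after tributyltin. Of the 57, 4 were higher in females (7.02%), near the 5.76% of all genes, and none in males, against 2.78% of all genes. NUMB, a regulator of Notch signalling, had 266 RPM in females and 174 RPM in males after methyltestosterone, against 139 RPM in females and 164 RPM in males untreated. The glycolytic enzyme ALDOC had 1652 RPM in females and 1179 RPM in males, and NDST1, which modifies heparan sulphate, had 234 RPM in females and 223 RPM in males, against 105 RPM in females and 320 RPM in males untreated.

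A direct test asked whether the sex difference after methyltestosterone departed from that of the other 3 pairs. In limma over 8 columns none of 9280 genes passed an adjusted p under 0.05, and 163 had an unadjusted p under 0.05 (91 with the female side relatively higher after methyltestosterone, 72 with it lower). Those 163 genes were a smaller share than a threshold of 0.05 would pass with no departure in any gene. The model had 2 residual degrees of freedom, against 1 where a pair was left out, and most of the spread it used was pooled across genes. It took the methyltestosterone pair to vary like the others. On simulated tags of 5097 genes with a mean of 20 RPM or more, the same model found 43 of 100 genes with a 4-fold departure and 82 of 100 with an 8-fold one, and its recovery of weaker genes was not simulated. The simulation gave every gene the same spread between columns (dispersion 0.0671) and no other sex or substance effect. It adjusted over 5097 genes in place of 9280. Those rates are thus not the power of the test on the real columns. Without the untreated columns edgeR called 17 genes (12 higher, 5 lower) and DESeq2 called 8 (4 higher, 4 lower). AMH, RPS28, RPL13 and the small heat shock protein gene HSPB8 were higher by both tools. HNRPK, ENSGALG00000000395, GIF and ENSGALG00000027090 were lower by both.

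Of the 4 lower calls shared by both tools, HNRPK and ENSGALG00000000395 had no male tag after oil and tributyltin. HNRPK, on an unplaced scaffold, had 284 RPM in females and 35.2 RPM in males after methyltestosterone, against 438 RPM in females and 36.9 RPM in males untreated and no male tag after oil and tributyltin. ENSGALG00000000395, also unplaced, had 339 RPM in females and 40.04 RPM in males after methyltestosterone, with no male tag after oil and tributyltin. GIF had 1041 RPM in females and 145 RPM in males after methyltestosterone, against 1293 RPM in females and 34.5 RPM in males after oil and 1415 RPM in females and 39.4 RPM in males after tributyltin. In the untreated pair, which those fits left out, GIF had 217 RPM in females and 43.0 RPM in males. The male share of GIF was thus larger untreated than after methyltestosterone, and its lower call holds against oil and tributyltin only. ENSGALG00000027090 had 1697 RPM in females and 350 RPM in males after methyltestosterone, 1099 RPM in females and 6.09 RPM in males after oil, and 1427 RPM in females and 11.8 RPM in males after tributyltin. The male shares of HNRPK and ENSGALG00000000395 after methyltestosterone, 12.4% and 11.8%, were near the 14.3% of the W genes, and so was that of GIF. That of ENSGALG00000027090 was larger, and this gene had 1366 RPM in females and 465 RPM in males untreated. Whether female RNA contributed to these male values was not tested. The unnamed gene ENSGALG00000026142 had 93.2 RPM in females and 0.150 RPM (1 tag) in males after methyltestosterone. In the other pairs it had 73.9 to 118 RPM in females and 20.3 to 37.4 RPM in males. Its interaction was 4.68 ± 0.87 (SE) on the log2 scale, with a limma adjusted p of 1 with all 3 other pairs and 0.00758 to 1 with 1 pair left out, the lowest without the oil pair. On the recovered tags without the untreated pair edgeR called ENSGALG00000026142, with an interaction of 7.11, and DESeq2 did not. Of the genes for which the female side was relatively lower, SERBP1 had 249 RPM in females and 584 RPM in males and TIMM13 146 RPM in females and 339 RPM in males, while the other pairs were near level or female-high.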

How the data were processed

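The submitters' processing notes name Novoalign and the build galGal4, with no versions given in the sources used here. The deposited values are RPM, 1 column per sex and substance. How the left and right libraries were joined is not stated. The authors' filler of 0.05 for no tag was set to 0. Dividing by the value of 1 tag gave whole tags (within 0.1 of a tag) for 100% of values in every column. A separate check did not accept the untreated female column as whole, so edgeR 4.0.16 and DESeq2 1.42.0 were run without the untreated pair. 

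Ratios used recovered tags (Clopper-Pearson, scipy 1.17.1). limma 3.58.1 (R 4.3.3, empirical Bayes with trend, Benjamini-Hochberg adjustment) was run on log2(RPM + 1), on genes that reached 1 RPM in 4 or more of 8 columns (3 of 6 without methyltestosterone). Its p-values reflect only the spread among columns, and empirical Bayes pools that spread across genes. In the interaction the pooled part had 7.03 degrees of freedom, against 2 residual ones of the gene itself. With 1 pair left out it had 11.4 (untreated), 43.6 (oil) and infinite (tributyltin), against 1 residual. A gene's own spread thus weighed little in those fits, and not at all without tributyltin. Intervals treat tags, which carry no molecular identifiers, as independent. On the simulated tags of 5097 genes, all with the same dispersion, the interaction made 126 calls, 1 of them false.

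Named genes were gonad genes on a list, the 5 smallest interaction p in each direction, the 10 largest excesses of each sex (lower bound, at least 50 RPM), the 8 smallest shares kept in each direction (mean of at least 20 RPM), and at most 4 called members per list. Of the gonad genes 1 is not reported here. The members, lists and tests were chosen with earlier results of these data known. SPINW, HSPB8, HNRPK, ENSGALG00000000395, GIF, ENSGALG00000027090 and list members outside these ranks (such as CDC20, CAT and DHRS3) were named after their values were seen. A further 1744 genes had no usable symbol (13 had become dates) and carry Ensembl identifiers.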

Additional observations from a re-analysis of the deposited data

Results flagged for a closer look

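Named genes were in part picked for keeping the smallest shares of their difference, so reversals among them were favoured in advance. Of all 458 genes called by sex without methyltestosterone, 21 had the reverse direction after it. In 13 of the 104 named genes the sex difference after methyltestosterone ran opposite to that of all 3 other pairs, with every counting interval off equality. Counting intervals leave out the spread between pools, and limma's interaction over all 8 columns called none of them. With 1 pair left out it called RPS28 (adjusted p of 0.00316 without oil and 0.0017 without tributyltin) and RPLP0 (0.0325 without oil). Females were higher after methyltestosterone and lower elsewhere for 8 genes, by a log2 difference of 1.40 for RPS28, 0.97 for RPLP0, 0.72 for RPL13, 0.60 for NUMB, 0.49 for ALDOC, 0.29 for BAHCC1, 0.18 for ITM2A and 0.11 for ZNF593. Females were lower after methyltestosterone and higher elsewhere for LTA4H (-0.47), LYRM5 (-0.36), STMN1 (-0.35), CD82 (-0.33) and MOSC2 (-0.15). On the recovered tags without the untreated pair edgeR called RPS28, RPL13, RPLP0, NUMB and ALDOC among these, and DESeq2 called RPS28 and RPL13.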

How the results depend on the processing

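With 4-fold in place of 2-fold the methyltestosterone pair gave 95 female-high and 47 male-high genes, with at least 50 RPM 211 and 116, and with thinned columns 102 and 63. With no minimum it gave 467 and 211, and on numbered autosomes alone (chosen after seeing the data) 342 and 133. The interaction gave 1 to 4 calls with 1 pair left out, 17 by edgeR and 8 by DESeq2, and 0 under the other 6 settings of limma. The 458 genes called by sex without methyltestosterone became 116 without a filter, 11 with thinned columns and 27 to 490 with 1 pair left out, the lowest without the untreated pair. The 141 genes that kept less than 50% became 20, 1 and 9 to 169 under the same settings, and 53 kept less than 25%. As shares of the genes called they were 17.2% without a filter, 9.09% with thinned columns and 31.2% to 37.8% with 1 pair left out, against 30.8%. Looked up in thinned columns with the calls as reported, 31.9% kept less than 50% after methyltestosterone, 28.0% untreated, 21.9% after oil and 10.7% after tributyltin. The W-linked share, the untreated pair alone and leaving out ribosomal protein genes (137) were chosen after seeing the data. Of 101 ratios of named genes none left its interval with median-of-ratios scaling, and 52 of 90 did when columns were thinned. The intervals were those at full depth, and a ratio from far fewer tags can leave them by counting error alone. No replicate block could be fitted because the columns carry no replicate number, and substance, which pairs the female and male columns, was a term of every limma model. Depth limits weak genes, since 3 tags were 5.90 to 9.53 RPM after oil and tributyltin.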

Other observations

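Gallinacins, the antimicrobial defensin peptides of birds, were female-high after methyltestosterone. GAL10 had 1605 RPM in females and 277 RPM in males after methyltestosterone, against 6816 RPM in females and 314 RPM in males untreated, and GAL1 had 1209 RPM in females and 367 RPM in males, against 593 RPM in females and 163 RPM in males untreated. GAL9 had 72.6 RPM in females and 6.45 RPM in males after methyltestosterone, against 116 RPM in females and 3.07 RPM in males untreated. The female minus male log2 difference of GAL10 after methyltestosterone departed from that of the other pairs by -1.92 ± 0.59 (SE) in the limma interaction, with an unadjusted p of 0.00977 and an adjusted p of 1. GAL10 was called without the tributyltin columns (limma adjusted p of 0.00102), but not without the untreated or the oil columns, nor by edgeR or DESeq2.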
